A study of Mus musculus with 6 samples.

Results

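The genes described here encode the core of the NF-kB pathway: the subunits Rela, Relb, Nfkb1 and Nfkb2, the inhibitor Nfkbia, the deubiquitinating enzyme Tnfaip3 (A20), the atypical nuclear inhibitors Nfkbiz and Bcl3, and the targets Birc3 and Cxcl16. They were chosen by name, and all 10 were found among the 24786 gene symbols of the deposited counts. All 10 were also among the 12139 genes with enough counts to be tested. RNA was sequenced from wild-type mouse intestinal organoids, which are epithelial structures cultured from the gut. After 10 min of dissociation into single cells, the cultures were kept for 16 h with 100 µM tyramine, an amine made by gut bacteria (3 libraries), or without it (3 control libraries, titled with the solvent DMSO). The series' design text speaks of medium for the controls, and whether solvent was also present with tyramine is not stated. Both groups were dissociated.

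NF-kB is a family of dimeric transcription factors that are held in the cytoplasm by inhibitor proteins and released by kinases acting downstream of cytokine and microbial receptors. In the classical branch, RelA pairs with p50, the product of Nfkb1, and in the alternative branch RelB pairs with p52, the product of Nfkb2. Many genes that NF-kB switches on encode brakes on the pathway, among them Nfkbia and Tnfaip3. In the gut epithelium the pathway is known for its part in survival, barrier defence and the recruitment of immune cells.

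With tyramine, Rela, Tnfaip3 and Cxcl16 rose and none of the 10 genes fell (edgeR's quasi-likelihood test, adjusted over all genes tested). Tnfaip3 was 2.02-fold higher, Rela 1.96-fold higher and Cxcl16 1.44-fold higher. For Relb, the subunit of the alternative branch, the tyramine libraries all lay below the controls, at means of 12.6 against 18.8 CPM (counts scaled to a common library size by TMM factors), but this did not pass the test. Of all tested genes, 12.5% rose and 13.3% fell at the same threshold, an adjusted p under 0.05. With DESeq2 0 of the 10 genes fell, with limma-voom 0 fell, and at an unadjusted edgeR p under 0.05 1 was lower, Birc3. The median log2 fold change of the 10 genes was 0.25, with 5 above and 5 below 0, and that of all genes tested was 0.00.

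Several of these genes carry the kappaB consensus motif close to their start site. RefSeq promoter windows (GRCm38.p6, 250 bases before to 50 after a start site) were matched by symbol for 6 of the 10 genes. Nfkb1, Relb, Nfkbiz and Cxcl16 were not matched. Of the 6, Nfkb2, Nfkbia, Tnfaip3 and Bcl3 held at least 1 match on either strand. Rela (1 window), Birc3 (1 window) and the second window of Tnfaip3 held none. Of all 32851 windows of that length, 8.46% held a match and 1.22% held at least 2. Of the 9 windows of these genes, 6 held a match and 3 held at least 2, but the windows of 1 gene can overlap and share a match. Nfkb2 alone gave 3 of the windows with a match. The genes were chosen as NF-kB genes, so their share beside that of all windows is a description and not a test. Windows of a gene with identical sequence were counted once here, but were not removed from the full set. The 4 sequences below are those with the motif at the first start site listed, shown because they place the motif beside genes whose measured levels are given next. Capitals mark the matches, and the Nfkb2 run holds 2 overlapping matches. A match is a description of the letters, not evidence of binding.

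Nfkb2, chr19:46304487-46304786, plus strand: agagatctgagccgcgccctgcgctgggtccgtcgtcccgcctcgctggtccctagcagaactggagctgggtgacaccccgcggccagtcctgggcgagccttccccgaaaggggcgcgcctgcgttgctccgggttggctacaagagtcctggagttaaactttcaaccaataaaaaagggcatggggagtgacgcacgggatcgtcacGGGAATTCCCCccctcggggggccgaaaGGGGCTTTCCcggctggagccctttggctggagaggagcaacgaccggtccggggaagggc

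Nfkbia, chr12:55492598-55492897, minus strand: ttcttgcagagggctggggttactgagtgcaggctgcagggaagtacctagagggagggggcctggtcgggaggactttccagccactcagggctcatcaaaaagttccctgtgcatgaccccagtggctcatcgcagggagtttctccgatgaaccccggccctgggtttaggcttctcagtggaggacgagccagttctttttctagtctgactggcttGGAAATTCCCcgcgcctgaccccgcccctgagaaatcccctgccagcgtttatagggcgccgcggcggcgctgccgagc

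Tnfaip3, chr10:19015361-19015660, minus strand: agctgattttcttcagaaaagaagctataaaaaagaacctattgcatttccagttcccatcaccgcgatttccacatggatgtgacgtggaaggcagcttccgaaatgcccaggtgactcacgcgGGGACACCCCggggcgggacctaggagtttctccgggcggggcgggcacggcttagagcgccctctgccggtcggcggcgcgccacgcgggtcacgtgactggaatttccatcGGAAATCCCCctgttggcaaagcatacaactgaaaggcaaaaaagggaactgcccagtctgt

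Bcl3, chr7:19822706-19823005, minus strand: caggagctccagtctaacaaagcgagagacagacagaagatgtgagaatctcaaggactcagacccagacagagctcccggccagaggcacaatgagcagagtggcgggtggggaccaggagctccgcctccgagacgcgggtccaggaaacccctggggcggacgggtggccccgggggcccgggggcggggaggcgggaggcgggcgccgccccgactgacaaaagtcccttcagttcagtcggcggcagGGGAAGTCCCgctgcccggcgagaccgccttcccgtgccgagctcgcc

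The Nfkbia match GGAAATTCCC began 29 bases before the start site. In Tnfaip3 the nearer match, GGAAATCCCC, began 12 bases before it and the farther one, GGGACACCCC, 125 bases before it. The Nfkb2 window held GGGAATTCCC and the overlapping GGAATTCCCC, which began 39 and 38 bases before the start site, and GGGGCTTTCC, 11 bases before. Bcl3 held GGGAAGTCCC just after its start site. Of these 4 genes, Tnfaip3 passed the test for a change, and whether the other 3 differ from it in their response was not tested.

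The libraries held 28316372 to 35035955 counts, a similar depth in both groups. Pairs of tyramine libraries differed more from each other than pairs of controls did (chi-square per degree of freedom 53.3 to 99.4 against 26.8 to 34.98), and the pairs that held tyramine replicate 3 differed most, at 94.4 and 99.4. The epithelial markers Krt8, Krt20 and Krt19, keratins of the gut lining, were abundant in both groups, with Krt8 at 6293 ± 344 CPM in controls and 6683 ± 331 with tyramine. Krt19 fell 1.59-fold (edgeR adjusted p = 0.00368). Of the 10 epithelial markers 2 rose, Krt18 and Cdh1, and 5 fell, against 12.5% and 13.3% of all genes tested. Besides Krt19 those that fell were the brush border gene Vil1 (2.69-fold), the intestinal transcription factor Cdx2 (3.46-fold), Lgals4 (2.08-fold) and Epcam (1.36-fold), and their part in the results below was not tested. Of 21 immune cell markers, 14 had at most 10 counts in every library, among them the pan-leukocyte gene Ptprc, and Cd3g, Cd8a, Cd79a, Ms4a1, Tyrobp and Coro1a were at 0 in all 6. The summed level of the immune list was 8.84 to 13.1 CPM in controls and 10.9 to 13.0 with tyramine, with Itgam, an integrin gene, the highest at 6.05 CPM in controls and 5.91 with tyramine. Itgam shares 3450 of its 5024 exon bases with Gm49368 on the same strand, so how reads were assigned between them is uncertain. Lyz2 and Cd14, myeloid genes, had means of 0.914 to 1.97 CPM. Of the 4 tested, 0 passed by edgeR, and their unadjusted p-values ran from 0.340 to 0.941. The 15 mesenchymal and endothelial markers summed to 15.6 to 16.1 CPM in controls and 13.5 to 14.6 with tyramine. The highest of these were Col1a1, Col1a2 and Vim. These are bulk libraries, so a lower level in every cell and fewer cells of 1 type cannot be told apart.

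**Figure D1:**
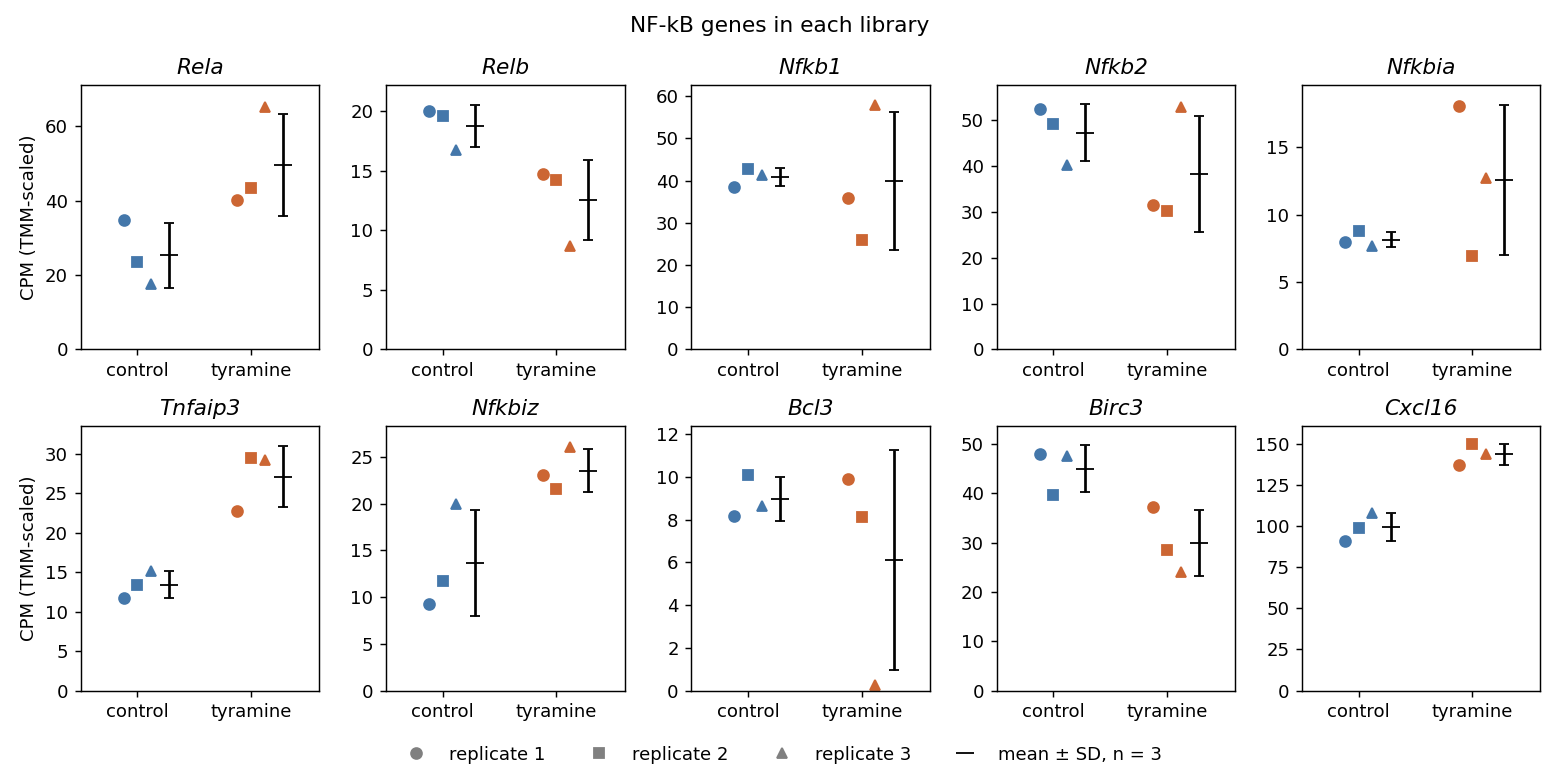
Level of each NF-kB gene in each library, in CPM scaled by TMM factors (vertical axis, from 0), for 3 control and 3 tyramine libraries (points, shaped by replicate number) with the mean ± SD beside them. The 3 tyramine libraries lie above all controls for Rela, Tnfaip3, Nfkbiz and Cxcl16 and below all controls for Relb and Birc3, and the other 4 genes overlap.

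The classical subunit Rela encodes the transactivating partner of most NF-kB dimers. It lies on GRCm38 chromosome 19, 5637483 to 5648130, plus strand. In replicate order, Rela measured 34.7, 23.4 and 17.7 CPM in controls and 40.1, 43.5 and 65.3 CPM with tyramine. The groups did not overlap, although control replicate 1 and tyramine replicate 1 were close to each other, and tyramine replicate 3 was the highest. The means were 25.3 ± 8.68 and 49.6 ± 13.7 CPM (SD, n = 3), a log2 fold change of 0.97 with SE 0.289 (edgeR adjusted p = 0.0330). The call was lost without control replicate 2 (log2 fold change 0.91, edgeR adjusted p = 0.122), control replicate 3 (0.77, adjusted p = 0.131) or tyramine replicate 3 (0.73, adjusted p = 0.0771). It was also just missed with library totals alone as the scale (0.88, adjusted p = 0.0533). A further loss, with the replicate block, is given in the closing section.

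Nfkb1 encodes p105, the precursor of p50, and had similar means in both groups. Its controls were close together at 38.6, 42.6 and 41.4 CPM, whereas the tyramine libraries spread to 36.0, 25.8 and 58.0 CPM. Tyramine replicate 2 was the lowest of the 6 and replicate 3 the highest, so the groups overlapped on both sides. The log2 fold change was -0.03 (95% interval -0.65 to 0.58; edgeR adjusted p = 0.945), and its sign turned without tyramine replicate 1 (0.04) or 2 (0.20). The interval does not show that Nfkb1 was unaffected, since it runs from 0.638 to 1.49 times the control level.

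Relb and Nfkb2, the alternative pair, were each lower on average with tyramine, without passing the test. Relb measured 20.04, 19.6 and 16.8 CPM in controls and 14.7, 14.2 and 8.73 CPM with tyramine. All tyramine libraries were below all controls, and replicate 3 was the lowest. Its log2 fold change was -0.58 (SE 0.306; 95% interval -1.27 to 0.10; edgeR adjusted p = 0.205). Nfkb2 measured 52.5, 49.1 and 40.4 CPM in controls and 31.5, 30.3 and 53.0 CPM with tyramine. Here replicate 3 was above every control while the other tyramine libraries were below them all, and the log2 fold change was -0.31 (95% interval -0.85 to 0.24; edgeR adjusted p = 0.418). Without tyramine replicate 3, Nfkb2 passed the test as lower (log2 fold change -0.61, edgeR adjusted p = 0.0397). Nfkb2 shares exon bases with a long noncoding RNA gene and with Psd on the opposite strand, and Psd measured 1.695 ± 1.22 CPM in controls and 1.13 ± 0.951 with tyramine.

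**Figure D2:**
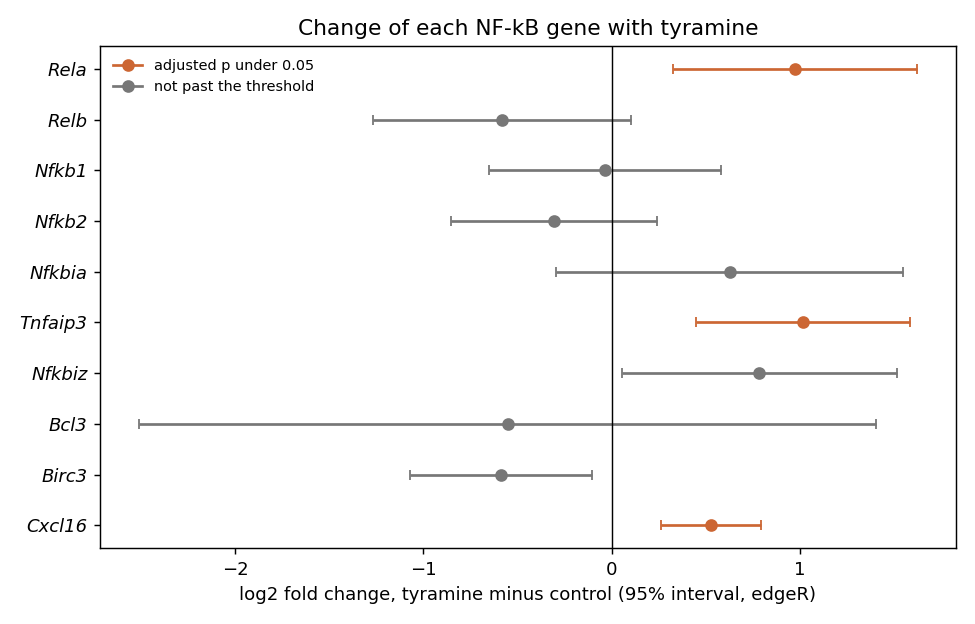
Log2 fold change of each NF-kB gene, tyramine minus control (horizontal axis), with its 95% interval from edgeR (bars, 3 libraries per group). Rela, Tnfaip3 and Cxcl16, in orange, passed the adjusted threshold, and the intervals of Nfkbiz and Birc3 miss 0 although their adjusted p-values, 0.110 and 0.0759, did not pass.

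Ratios of counts within a library do not depend on how libraries are scaled against each other, so the balance between subunits was compared that way. The Relb to Rela ratio was 0.577, 0.838 and 0.947 for the controls in replicate order, against 0.368, 0.327 and 0.134 with tyramine. Every tyramine library lay below every control, with replicate 3 the lowest, and the mean log2 ratio went from -0.38 ± 0.372 to -1.99 ± 0.797 (SD, n = 3), 3.05-fold lower. The exact two-sided permutation test gave p = 0.10, the smallest that 3 against 3 libraries allow, and 0.30 adjusted over the 3 ratios examined. Without tyramine replicate 3 the log2 difference was -1.15 in place of -1.61.

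The Nfkb2 to Nfkb1 ratio overlapped between groups. It was 1.36, 1.15 and 0.975 in controls and 0.877, 1.18 and 0.915 with tyramine (log2 difference -0.23, exact permutation p = 0.30, adjusted p = 0.45). For Nfkbia to Rela, the inhibitor against its main client subunit, the ratios were 0.230, 0.376 and 0.434 in controls and 0.451, 0.160 and 0.195 with tyramine. These overlapped as well, because tyramine replicate 1 held the highest ratio of the 6 (log2 difference -0.47, exact permutation p = 0.50, adjusted p = 0.50).

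**Figure D3:**
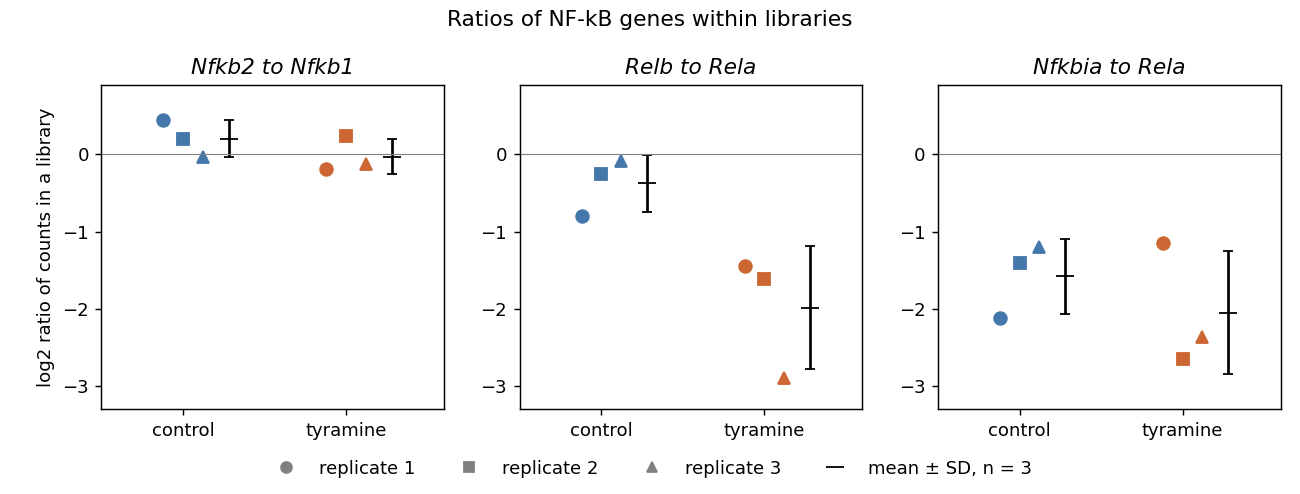
Log2 ratio of the counts of 2 NF-kB genes within each library (vertical axis), for 3 control and 3 tyramine libraries (points, shaped by replicate number) with the mean ± SD. The Relb to Rela ratio is lower in every tyramine library than in every control, and the other ratios overlap between the groups.

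Among the feedback inhibitors, Tnfaip3 rose and Nfkbia was uneven. Tnfaip3 encodes A20, a ubiquitin-editing enzyme that shuts off signalling from TNF and Toll-like receptors (chromosome 10, 19000910 to 19015657, minus strand). It measured 11.8, 13.3 and 15.1 CPM in controls and 22.7, 29.5 and 29.3 CPM with tyramine. The lowest tyramine library stood well above the highest control, and the means were 13.4 ± 1.69 and 27.1 ± 3.83 CPM (SD, n = 3). This was a log2 fold change of 1.02 with SE 0.254 (edgeR adjusted p = 0.0153). It lost the call without control replicate 1 (log2 fold change 0.92, edgeR adjusted p = 0.0734) or control replicate 2 (1.01, adjusted p = 0.0680).

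Nfkbia encodes IkBalpha, the inhibitor that retains RelA dimers in the cytoplasm and is resynthesized after each round of activation (chromosome 12, 55489410 to 55492647, minus strand). Its controls were tight at 7.96, 8.77 and 7.68 CPM. The tyramine libraries measured 18.1, 6.95 and 12.7 CPM, so replicates 1 and 3 lay above all controls and replicate 2 below them. The log2 fold change of 0.63 had a 95% interval of -0.29 to 1.55 and did not pass (edgeR adjusted p = 0.316). Tyramine replicate 2, the lowest of the 6 for Nfkbia, was among the highest for Tnfaip3, at 29.5 CPM.

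The atypical inhibitors act in the nucleus on dimers of p50 and p52. Nfkbiz, which encodes IkBzeta, a cofactor for secondary response genes, measured 9.25, 11.7 and 19.99 CPM in controls and 23.0, 21.5 and 26.0 CPM with tyramine. The groups did not overlap, but control replicate 3 came close to the tyramine libraries. Its log2 fold change of 0.78 (SE 0.327) did not pass (edgeR adjusted p = 0.110). Without control replicate 3 it did (log2 fold change 1.16, edgeR adjusted p = 0.0464), and it also passed with limma-voom (0.87, limma-voom adjusted p = 0.0476).

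Bcl3, whose protein binds p50 and p52 homodimers, was set apart by 1 library. It measured 8.16, 10.1 and 8.63 CPM in controls and 9.91 and 8.14 CPM in tyramine replicates 1 and 2, but 0.278 CPM in tyramine replicate 3, where it had 8 counts against 246 to 369 in the 3 controls. Replicates 1 and 2 lay in or beside the control range, and replicate 3 far below it. Bcl3 shares 161 exon bases with the antisense gene Gm16175. The log2 fold change was -0.55 with a 95% interval of -2.51 to 1.40 (edgeR adjusted p = 0.713), and 0.01 without tyramine replicate 3. That library was also the lowest of the 6 for Relb and Birc3 and the highest for Rela, Nfkb1, Nfkb2 and Nfkbiz.

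Birc3 and Cxcl16, a survival target and a chemokine target, lay in opposite directions. Birc3 encodes cIAP2, a ubiquitin ligase of the TNF receptor complex that protects cells from death signalling. It measured 47.9, 39.5 and 47.4 CPM in controls and 37.3, 28.5 and 24.1 CPM with tyramine. All tyramine libraries were below all controls, with tyramine replicate 1 and control replicate 2 nearly meeting. The log2 fold change was -0.59 (SE 0.217; 95% interval -1.07 to -0.10), and the edgeR adjusted p = 0.0759 missed the threshold. It passed without tyramine replicate 1 (log2 fold change -0.77, edgeR adjusted p = 0.0310) and with library totals alone as the scale (-0.67, edgeR adjusted p = 0.0486).

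Cxcl16 encodes a transmembrane chemokine and scavenger receptor whose shed form attracts CXCR6-bearing lymphocytes (chromosome 11, 70453983 to 70459984, minus strand). It measured 90.9, 99.0 and 108 CPM in controls and 137, 150.0 and 143 CPM with tyramine. The groups were well separated and scattered little, with means of 99.4 ± 8.63 and 143 ± 6.56 CPM (SD, n = 3). The log2 fold change was 0.53 with SE 0.119 (edgeR adjusted p = 0.00896), and the call was narrowly lost without control replicate 1 (0.46, edgeR adjusted p = 0.0540). Cxcl16 shares 552 exon bases with Zmynd15 on the opposite strand, and no source used here states whether counting used strand. Zmynd15 measured 22.0 ± 5.02 CPM in controls and 27.8 ± 12.9 with tyramine.

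In all, 4 of the 10 genes had tyramine libraries entirely above the controls and 2 entirely below. Among all genes tested, those shares were 20.9% and 23.6%. Of the 6, the 3 called genes and Nfkbiz were the higher ones. The count of called genes changed with the libraries left out: 1 of the 10 rose without control replicate 1 (Rela) or without control replicate 2 (Cxcl16), and 3 without control replicate 3 (Nfkbiz, Tnfaip3 and Cxcl16). Without tyramine replicate 3, 2 rose (Tnfaip3 and Cxcl16) and Nfkb2 fell. Over all genes tested, 3127 were called with all libraries and 1977 to 2075 with a control left out, so fewer calls without a control were not particular to these genes. Without tyramine replicate 3, by contrast, 3307 genes were called in all, while Rela lost its call.

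Levels per kilobase of exon allow the genes to be set in an approximate order. The length used was that of the merged exons of all annotated transcripts of a gene, so the order depends on the annotation. It was 12.06 kb for Nfkb1 and 1.61 kb for Nfkbia, for example. By CPM alone, Nfkb1 at 40.9 was above Nfkbia at 8.14 in controls. In controls Cxcl16 was the most abundant at 32.9 ± 2.86 CPM per kb, apart from the rest. Nfkb2 (10.3 ± 1.37), Birc3 (8.98 ± 0.940) and Rela (8.23 ± 2.82 CPM per kb) followed with overlapping ranges. Nfkbia and Relb came next at 5.05 ± 0.351 and 4.84 ± 0.457 CPM per kb, also overlapping. Bcl3 (3.62 ± 0.412), Nfkb1 (3.39 ± 0.172), Nfkbiz (2.72 ± 1.12) and Tnfaip3 (1.86 ± 0.233 CPM per kb) were the lowest, each overlapping the next. With tyramine Rela stood second at 16.2 ± 4.45 CPM per kb, below Cxcl16 at 47.5 ± 2.17 and above Nfkb2 at 8.35 ± 2.78, with no overlap on either side. Tnfaip3 (3.76 ± 0.530), Nfkb1 (3.31 ± 1.36), Relb (3.23 ± 0.857) and Bcl3 (2.47 ± 2.07 CPM per kb) were then the lowest, each overlapping the next, so their order is not clear.

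The rest of the pathway was read from 6 lists, in which 85 of 136 genes had enough counts to be tested. Among the other subunits and members of the inhibitor family, Nfkbib, which encodes IkBbeta, rose 1.67-fold from 49.8 ± 5.82 to 83.1 ± 11.4 CPM (log2 fold change 0.74, edgeR adjusted p = 0.00846). It kept its call in every setting tried. It shares 314 exon bases with Ccer2 on the opposite strand, which measured 0.0548 ± 0.0949 CPM in controls and 1.02 ± 1.71 with tyramine, and a shorter stretch with Sirt2 (22.0 ± 8.72 and 29.97 ± 12.3 CPM). Rel, the lymphoid subunit c-Rel, was low and overlapping at 5.67 ± 1.91 and 6.49 ± 0.940 CPM. Nfkbie, another inhibitor gene, measured 2.27 ± 0.511 and 0.528 ± 0.458 CPM and was not past the threshold, and Nfkbid had too few counts. None of the 3 tested fell (edgeR; 0 also at an unadjusted p under 0.05, by DESeq2 and by limma-voom).

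Of 22 upstream receptor genes, 10 were tested and 1 rose: Tnfrsf12a, the receptor of the cytokine TWEAK, which feeds both NF-kB branches, went from 86.0 ± 2.87 to 142 ± 9.37 CPM (1.65-fold, edgeR adjusted p = 0.00146) and kept its call in every setting tried. None fell by edgeR, DESeq2 or limma-voom, with 1 lower at an unadjusted edgeR p under 0.05. The receptor list had a median log2 fold change of 0.00. The remaining 12 receptors had too few counts, among them Tlr2, Nod2, Cd40 and Il1r1, named after their counts were seen.

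Of 29 tested adaptors and kinases, 5 rose, 2 fell and 22 did not pass, against 12.5% rising and 13.3% falling over all genes tested. Their median log2 fold change was 0.42. Sqstm1, the scaffold p62 that links receptors to TRAF6 and is also an autophagy receptor, was at 270.1 ± 11.3 CPM in controls and 2380 ± 556 with tyramine, an 8.81-fold rise (edgeR adjusted p = 8.6e-07). Mrnip, which shares 580 exon bases with it on the opposite strand, measured 1.91 ± 0.299 and 0.5998 ± 1.04 CPM. Ikbkg, which encodes NEMO, the regulatory subunit of the IkB kinase, measured 58.3 ± 5.19 and 196 ± 7.57 CPM and rose 3.36-fold (edgeR adjusted p = 7.3e-06). Its gene shares 418 exon bases with G6pdx on the opposite strand, and G6pdx, which makes the first enzyme of the pentose phosphate pathway, rose 2.504-fold with tyramine, at 152 ± 7.96 and 380.2 ± 23.5 CPM. What part reads from G6pdx had in the count of Ikbkg was not tested. The catalytic partners of NEMO, Chuk and Ikbkb, named after their values were seen, did not pass (log2 fold changes -0.10 and -0.15).

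Map3k14 encodes NIK, the kinase that opens the alternative branch. It measured 9.57 ± 1.03 and 23.3 ± 3.13 CPM and rose 2.43-fold (edgeR adjusted p = 0.00749), and the means of Relb and Nfkb2, which act below it, were lower with tyramine without passing. Ripk1, the kinase of the TNF receptor complex, measured 149 ± 16.1 and 241 ± 53.4 CPM and rose 1.615-fold (edgeR adjusted p = 0.0101), a call lost without control replicate 3 (log2 fold change 0.61, adjusted p = 0.0561). Ripk1 shares 511 exon bases with the pseudogene Gm17084 on the same strand. Map3k7, encoding the kinase TAK1, also rose, from 36.4 ± 3.96 to 75.3 ± 41.5 CPM with overlapping groups (edgeR adjusted p = 0.0492), and lost its call in most alternatives, with a log2 fold change of 0.55 and adjusted p = 0.136 without tyramine replicate 3. Ikbke, an IkB kinase relative, measured 24.7 ± 5.37 and 9.89 ± 4.29 CPM and fell 2.501-fold (edgeR adjusted p = 0.0265), and Irak1, a kinase of Toll-like and interleukin-1 receptors, fell 1.62-fold (adjusted p = 0.0366). The call of Irak1 was lost without control replicate 1 or 2 or tyramine replicate 1 or 2 (adjusted p from 0.0627 to 0.157 in edgeR). The call of Ikbke was lost without any 1 control library or tyramine replicate 2, with log2 fold changes of -1.18, -1.30, -1.48 and -1.33.

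Ubiquitin editors, the enzymes and binding partners that build or trim the ubiquitin chains of the pathway, were all tested. Of these 21 genes 6 rose, 1 fell and 14 did not pass, beside 12.5% and 13.3% of all genes. The median log2 fold change of the list was 0.28. Tnip2, which encodes the A20-binding inhibitor ABIN2, measured 15.4 ± 3.56 and 37.1 ± 3.82 CPM and rose 2.41-fold (edgeR adjusted p = 0.00413). The deubiquitinase genes Otud7b and Cyld rose 1.67-fold and 1.69-fold, from 176 ± 13.3 to 294 ± 13.1 CPM and from 40.5 ± 4.86 to 68.4 ± 7.28 CPM (edgeR adjusted p = 0.000568 and 0.00899). N4bp1, Peli1 and Birc2 also rose, 2.01-fold, 1.92-fold and 1.52-fold. Rbck1, a subunit of the linear ubiquitin ligase, fell 1.44-fold. The calls of N4bp1, Peli1, Birc2 and Rbck1 were each lost without any 1 control library (edgeR adjusted p from 0.0753 to 0.155) and without some tyramine libraries, and that of Cyld without control replicate 3 (adjusted p = 0.0507). Tnip2 and Otud7b kept their calls in every setting tried, and 3, 3 and 2 of the list rose without control replicate 1, 2 or 3 respectively. Birc2, the closest relative of Birc3, was higher with tyramine, at 34.3 ± 1.38 and 52.0 ± 9.002 CPM, whereas the mean of Birc3 was lower without passing. The Birc2 call was also lost with library totals alone (edgeR adjusted p = 0.0758) and with no filter on low counts, among other settings. The difference between the pair was not tested.

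**Figure D4:**
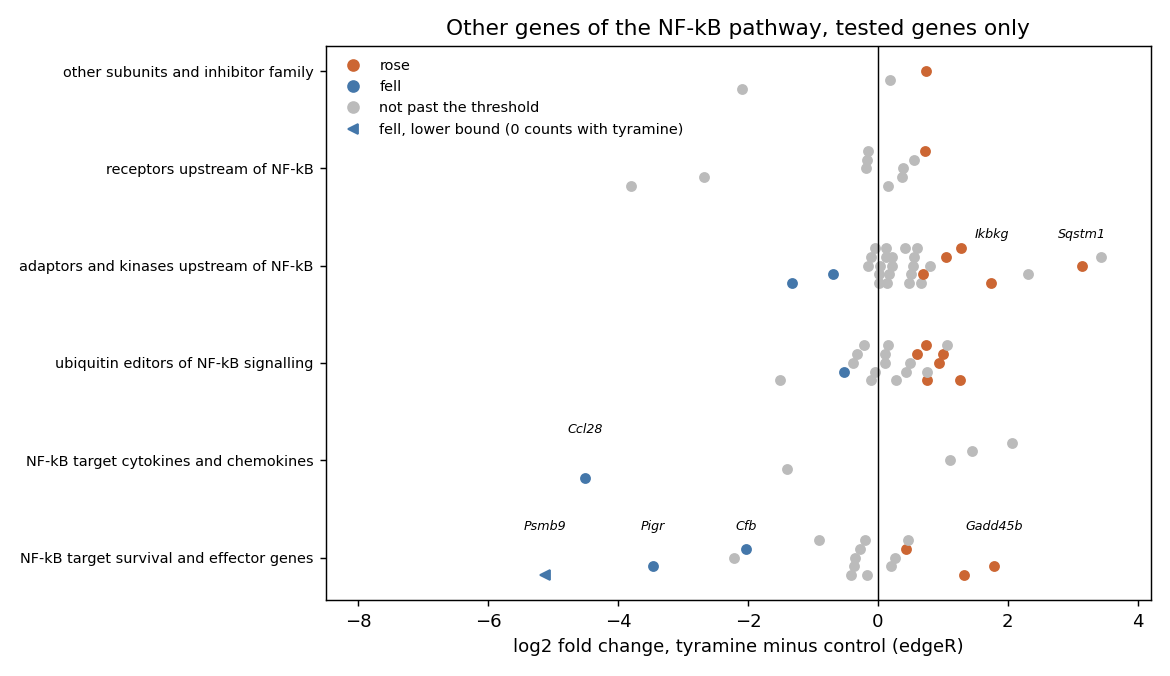
Log2 fold change, tyramine minus control (horizontal axis), of the 85 tested genes in 6 NF-kB pathway lists (rows), 3 libraries per group. Orange points rose and blue points fell at an edgeR adjusted p under 0.05, and Psmb9, with 0 counts in all tyramine libraries, is drawn at its lower bound of a 34.8-fold fall.

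Most of the listed cytokine and chemokine targets of NF-kB were scarce in both groups. Of 27 cytokine and chemokine genes, 22 had too few counts to be tested, 12 had at most 10 counts in every library, and 6 had 0 in all of them (Ccl5, Ccl7, Ltb, Il1b, Il12b and Csf3). A count of 0 allows up to 3 counts, or 0.0822 to 0.106 CPM depending on the library, by counting error alone. None of the 5 tested rose by edgeR (1 at an unadjusted p under 0.05, 1 by DESeq2 and 0 by limma-voom), and Ccl28 fell. The median log2 fold change of the 5 was 1.11, with 3 above and 2 below 0. Ccl28, an epithelial chemokine that attracts antibody-secreting cells, was counted 518, 965 and 621 times in the control libraries against 75, 7 and 0 times with tyramine, or 21.8 ± 4.70 and 0.955 ± 1.47 CPM (log2 fold change -4.51, edgeR adjusted p = 0.0223). That call was lost without any 1 control library (adjusted p = 0.0530, 0.0644 and 0.0640) and with no filter on low counts (0.0773). Il33, an alarmin gene, measured 4.67 ± 2.18 and 12.8 ± 4.91 CPM and Cx3cl1, fractalkine, 14.8 ± 4.95 and 5.64 ± 2.77 CPM. Neither passed by edgeR (adjusted p = 0.0583 and 0.0637). For scale, the highest mean among these 27 genes was 21.8 CPM, for Ccl28 in controls, and Cxcl16 is not on that list.

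Of 17 tested survival and effector targets 3 rose, 3 fell and 11 did not pass, near the 12.5% and 13.3% of all genes, with a median log2 fold change of -0.28. Fth1, the ferritin heavy chain gene, went from 1457 ± 92.2 to 3674 ± 45.7 CPM, a 2.52-fold rise (edgeR adjusted p = 2.5e-06). Gadd45b, a stress-response and survival gene, measured 5.50 ± 1.76 and 19.0 ± 1.49 CPM and rose 3.46-fold (edgeR adjusted p = 0.00456), and the syndecan gene Sdc4 rose 1.36-fold. Pigr, the receptor that carries IgA across the epithelium, measured 516 ± 2.72 and 46.8 ± 11.5 CPM and fell 11.0-fold (edgeR adjusted p = 1.1e-06). Cfb, complement factor B, measured 77.7 ± 9.47 and 19.1 ± 5.69 CPM and fell 4.07-fold (edgeR adjusted p = 0.000205). The annotation places 2246 of its 2825 exon bases also in Gm20547 on the same strand, so how reads were assigned between them is uncertain. Psmb9, an immunoproteasome subunit gene, was counted 134, 115 and 87 times in the control libraries and 0 times in each tyramine library. Taking 3 counts in each library as the floor, and 1 count as 1 molecule, it was at least 34.8-fold lower. A count may not be 1 molecule here, and the bound would then be smaller. Tap1, on the opposite strand with 212 shared exon bases, measured 9.998 ± 0.841 and 4.97 ± 1.95 CPM. The Sdc4 call was lost without any 1 control library (edgeR adjusted p from 0.0625 to 0.161), among other settings. Fth1, Gadd45b, Pigr, Cfb and Psmb9 kept their calls in every setting tried. Several of these targets are also controlled by other pathways, and Sqstm1 and Fth1 in particular are known targets of the antioxidant factor NRF2, whose target Nqo1, a quinone reductase gene named after its values were seen, measured 61.4 ± 4.03 CPM in controls and 613 ± 76.4 with tyramine. The part of other pathways in these levels was not tested.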

How the data were processed

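RNA was sequenced from 3 control and 3 tyramine libraries of wild-type mouse intestinal organoids. Per the labels' protocols, a stranded mRNA kit with random molecular identifiers was used, and the submitters' processing notes name STAR 2.5.3a and the build mm10. No source used here names the counting program, annotation, strand setting or use of identifiers. The authors deposited 1 table of raw counts by gene symbol, whose column names match the sample titles. Values of 1 to 8 counts were even in 72.6% to 78.7% of cases per library, so a count may not be 1 molecule, and floors cover counting error only. The labels do not say whether replicates are separate cultures or animals, so the p-values reflect how far these libraries scatter, and that scatter may be technical.

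Genes were filtered with filterByExpr (minimum count 10, minimum total 15) and scaled by TMM. All 12139 genes kept were tested by quasi-likelihood in edgeR 4.0.16 (R 4.3.3), with robust estimation, group as the only term and Benjamini-Hochberg adjustment. The scripts were tested on simulated data. CPM were computed with TMM-scaled library sizes, folds are ratios of mean CPM, and SE is the log2 fold change over the square root of F. Ratios of counts within a library had 0.5 added to each count and were compared by an exact permutation test. Gene positions, exon lengths and overlaps are those of GENCODE M21 on GRCm38, and promoters are from RefSeq on GRCm38.p6. Coordinates therefore use the same assembly as mm10.

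The members and lists were chosen with earlier results of these data known. Named genes were all 10 members, up to 5 called genes with the smallest p per pathway list (where none was called, the gene with the smallest p) and the 3 most abundant genes of each marker list. Genes outside that rule were picked with their values in view. Alternatives were DESeq2-type size factors, library totals, other filters, DESeq2 1.42.0, limma-voom (limma 3.58.1), robust estimation off, a replicate block, halved counts and each of the 6 libraries left out.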

Additional observations from a re-analysis of the deposited data

How the results depend on the processing

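Members rising numbered 2 to 4 in the settings that kept all 6 libraries and 1 to 3 with each library left out. Members falling numbered 1 with library totals alone (Birc3) and 0 to 1 with each library left out. The sign of Nfkb1 (-0.40 to 0.20) and Bcl3 (-1.09 to 0.01) turned only when tyramine libraries were left out. With each library left out, genes called in all numbered 1977 to 3307, rising 934 to 1510 and falling 1035 to 1797, against 3127, 1518 and 1609. In the same way adaptors and kinases gave 3 to 6 rising and 0 to 2 falling, ubiquitin editors 2 to 8 rising and 0 to 1 falling, and cytokines and chemokines 0 to 1 rising and 0 to 2 falling. With no filter on low counts, 0 ubiquitin editors and 0 cytokine genes fell. DESeq2 gave 1 rising and 2 falling cytokine genes, and limma-voom 2 falling. The cause of these shifts was not tested, except that leaving out a library reduces the number of samples. Each of the 3 ratios kept its direction in every alternative run for it, 24 values over the 3 together.

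The labels do not say that a shared number marks a shared culture, so the numbers were not taken as pairs. Same-numbered libraries did not deviate together from their group means (correlations of -0.0239, -0.0148 and 0.00618). This does not show how the cultures were made. With the replicate block, 2 members rose (Tnfaip3 and Cxcl16) and Rela had a log2 fold change of 0.99 with an edgeR adjusted p = 0.0663. With the block, 1 adaptor or kinase and 0 ubiquitin editors fell, and Birc2 was not among the ubiquitin editors that rose.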
